A study of Mus musculus with 9 samples.

Results

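TGF-beta ligand, receptor and SMAD genes were examined in bulk RNA-seq of T15, a murine Smarcb1-negative peripheral T-cell lymphoma (PTCL) cell line. The 10 genes were Tgfb1, Tgfb3, Tgfbr1, Tgfbr2, Smad2, Smad3, Smad4, Smad7, Ski and Skil. They were chosen by name as TGF-beta pathway genes, found through their Ensembl identifiers, and make up 10 of 35288 listed genes. All 10 passed the filter on low counts, which left 13697 genes for testing, but Smad7 passed only through its 3 SAHA libraries.

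The 9 libraries comprised 3 control, 3 SAHA and 3 Smarcb1-RE replicates, described in the methods as biological replicates of this cell line. SAHA cells were T15 exposed to SAHA (vorinostat, an inhibitor of histone deacetylases) at 1 µM over 72 h. The study reports strong apoptosis of T15 at this concentration, with most cells dead. After Smarcb1 re-expression it reports slower growth, without an effect on viability or the cell cycle. The part of cell death or growth in the results below was not tested. Smarcb1-RE cells were T15 carrying a lentiviral Smarcb1 cDNA in the Dox-inducible plasmid pInd20, selected with G418 and induced with Dox at 0.5 µg/µl for 72 h. Several stable clones were made according to the methods, and which of them entered the libraries is not given in the sources used here. Per the labels, SAHA was set against a vehicle and the Smarcb1 plasmid against a control plasmid, whereas the text of the study calls the control cells untreated and a figure legend describes cells given an empty vector and Dox. Unless the control libraries were of the latter kind, transduction, G418 selection and Dox cannot be told apart from Smarcb1 in the comparison with control, nor can they in the comparison with SAHA. The choice of clone cannot be told apart from Smarcb1 in either. Both comparisons with control use the same 3 control libraries. If these were given an empty vector and Dox, the vector and Dox cannot be told apart from SAHA in SAHA against control. If they were untreated, a vehicle cannot be told apart from SAHA.

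TGF-beta ligands are secreted in a latent form and, once released, bind the type II receptor Tgfbr2, which recruits and phosphorylates the type I receptor Tgfbr1. Tgfbr1 then phosphorylates Smad2 and Smad3, which join Smad4 and act on target genes in the nucleus. Smad7 blocks the receptor complex, and the co-repressors Ski and Skil bind SMAD complexes and bring histone deacetylases to them. In T cells the pathway is known for restraining proliferation and effector function and for supporting regulatory and tissue-resident fates.

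Total counts per library ranged from 20900477 to 24941494, and 3 counts, taken as the floor of detection, equalled 0.123 to 0.133 CPM (counting error only). CPM here are counts relative to each library's total after TMM scaling, edgeR's trimmed-mean correction for differences in RNA composition. Smarcb1 had 2, 5 and 8 counts in control, 7, 13 and 3 under SAHA and 151, 147 and 142 in Smarcb1-RE. Control replicate 1 stood apart, with a chi-square per gene of 12.9 and 14.4 against the other control libraries and at most 4.60 between all other replicates. The T-cell genes Cd3e, Cd3g, Cd3d, Lck and Ptprc were abundant in every library, whereas Cd2 reached at most 3 counts and Thy1 at most 6. Their levels moved with the groups: the summed level of these 7 markers was 2042 to 2090 CPM in control, 2509 to 2547 under SAHA and 3096 to 3145 in Smarcb1-RE. Ptprc averaged 641, 1007 and 1641 CPM in that order of groups, Lck 334, 320 and 541, and Cd3e 396, 410 and 326. Of 4 fibroblast markers, the summed level was 6.34 to 8.88 CPM in control, 6.76 to 6.98 under SAHA and 66.4 to 68.5 in Smarcb1-RE, nearly all of it Pdgfra (67.1 CPM in Smarcb1-RE), while Col1a1, Col1a2 and Pdgfrb stayed at or below 1.08 CPM in each library. The B-cell gene Ms4a1 averaged 0.825 CPM in control, 0.768 under SAHA and 3.51 in Smarcb1-RE. The part of these markers in the results below was not tested. When libraries were scaled by their totals alone, the all-gene median of the log2 fold change moved from 0.01 to 0.17 in Smarcb1-RE against control and from 0.02 to 0.18 in Smarcb1-RE against SAHA, so changes in Smarcb1-RE are relative to the TMM scaling.

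Levels of different genes were compared as CPM per kb of merged exons. In control cells Smad4 (18.8 ± 0.933, SD, n = 3) and Skil (17.7 ± 1.04) were highest and overlapped, followed by Tgfb3 (13.0 ± 0.890) and Smad2 (7.69 ± 0.188), each clear of its neighbours. Ski (3.60 ± 0.263), Tgfbr2 (3.24 ± 0.292), Smad3 (2.86 ± 0.100) and Tgfbr1 (2.73 ± 0.386) came next, and each overlapped the following one. Tgfb1 (0.378 ± 0.0605) and Smad7 (0.0650 ± 0.00964) lay far below. Measured per kb of the longest coding transcript instead, Skil (25.6) exceeded Smad4 (20.6) in control, so the order of this pair depended on the length used.

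The order below Skil changed with treatment. In Smarcb1-RE, Tgfbr1 moved from 8th to 4th (5.98 ± 0.274 CPM per kb), overlapping Ski (5.65 ± 0.408), and Tgfb3 moved from 3rd to 7th (5.11 ± 0.0967). In SAHA, Smad3 reached 6.43 ± 0.547 CPM per kb and overlapped Tgfb3 (6.72 ± 0.286), which in turn overlapped Smad2 (6.78 ± 0.159). Tgfbr2 held between 3.24 and 3.40 CPM per kb in all 3 groups, and was thereby the lower of the receptor genes in both treated groups. Tgfb1 and Smad7 ranked 9th and 10th in every group. The summed level of all 10 genes was 436 ± 23.9 CPM in control, 418 ± 4.36 under SAHA and 433 ± 10.0 in Smarcb1-RE, and the control libraries spanned the range of both treated groups.

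**Figure D1:**
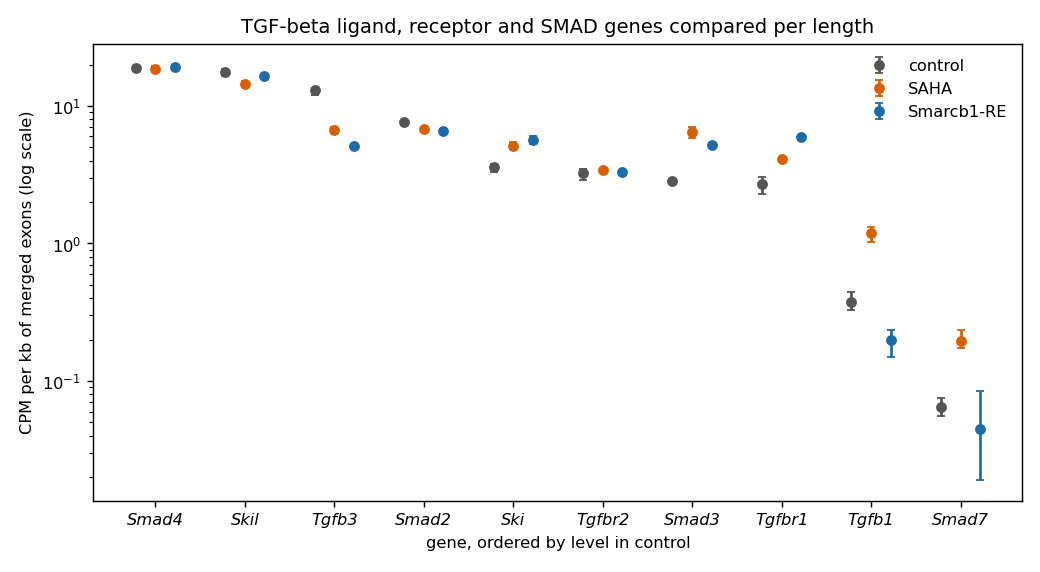
Level of each gene in CPM per kb of merged exons (log scale) in control, SAHA and Smarcb1-RE, where points are means of 3 libraries and bars run from the lowest to the highest library. Smad4 and Skil are highest and Tgfb1 and Smad7 lowest in every group, and Tgfbr1 lies above Tgfbr2 in SAHA and Smarcb1-RE.

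In SAHA against control, 5 of the 10 genes rose (Tgfb1, Tgfbr1, Smad3, Smad7 and Ski), 3 fell (Tgfb3, Smad2 and Skil) and Tgfbr2 and Smad4 were not called (edgeR's quasi-likelihood test, Benjamini-Hochberg adjusted p under 0.05 over all tested genes). Of all tested genes 66.9% were called in this comparison, 32.6% as higher and 34.3% as lower, and the 8 calls among 10 genes are to be read against that share. Tgfb1, Smad3 and Smad7 passed 2-fold upward, as did 9.85% of all genes, and none passed it downward, as did 2.35%. The same 5 genes had every SAHA library above every control library, as did 33.8% of all genes, and the same 3 had every SAHA library below, as did 34.9%, for 68.7% in either direction. Smad7 had to be high in SAHA to be tested at all, and without it 4 of 9 genes rose, 2 of them by 2-fold, with a median log2 fold change of 0.07, against 0.00 over all genes.

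In Smarcb1-RE against control, 3 genes rose (Tgfbr1, Smad3 and Ski), 4 fell (Tgfb1, Tgfb3, Smad2 and Skil) and Tgfbr2, Smad4 and Smad7 were not called. Here 77.8% of all tested genes were called, 39.2% as higher and 38.6% as lower. Only Tgfbr1 passed 2-fold upward (16.9% of all genes) and only Tgfb3 downward (6.78%). Libraries did not overlap for the 3 genes that rose (40.4% of all genes were separated upward), and for 3 of the 4 that fell, Skil being the exception (39.1% downward, 79.5% in either direction). The median of the 9 genes without Smad7 was 0.03, against 0.01 over all genes. With library totals as the scaling, Tgfbr2 (log2 fold change 0.19, adjusted p = 0.0261) and Smad4 (0.19, adjusted p = 0.00659) were also called higher, and Smad2 (-0.06, adjusted p = 0.224) and Skil (0.04) were no longer called lower.

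The direct comparison of Smarcb1-RE with SAHA called Tgfbr1 and Skil higher in Smarcb1-RE, and Tgfb1, Tgfb3, Smad3 and Smad7 lower, beside 74.6% of all tested genes called (37.7% higher, 36.8% lower). The libraries of these 6 genes did not overlap, as was so for 80.0% of all genes (40.7% higher and 39.2% lower). Without Smad7, 2 of 9 genes were higher and 3 lower. Tgfb1 was lower by more than 2-fold, as were 8.21% of all genes, and 11.5% were higher by that much. Smad7 was also lower by more than 2-fold, but had to be high in SAHA to be tested at all. The other 4 genes were not called, among them Ski (0.13, 95% interval -0.01 to 0.28, adjusted p = 0.0924). With library totals as the scaling 5 of the 10 genes were higher and 3 lower, beside 6441 and 3924 of all 13697 tested genes. Ski (0.29, adjusted p = 0.0026), Smad4 (0.21, adjusted p = 0.00306) and Smad2 (0.12, adjusted p = 0.0187) were then called higher, and Smad3 (-0.14, adjusted p = 0.0531) was no longer called. Without control replicate 1, the library that stood apart, the number of the 10 genes called in each direction was as given in all 3 comparisons.

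**Figure D2:**
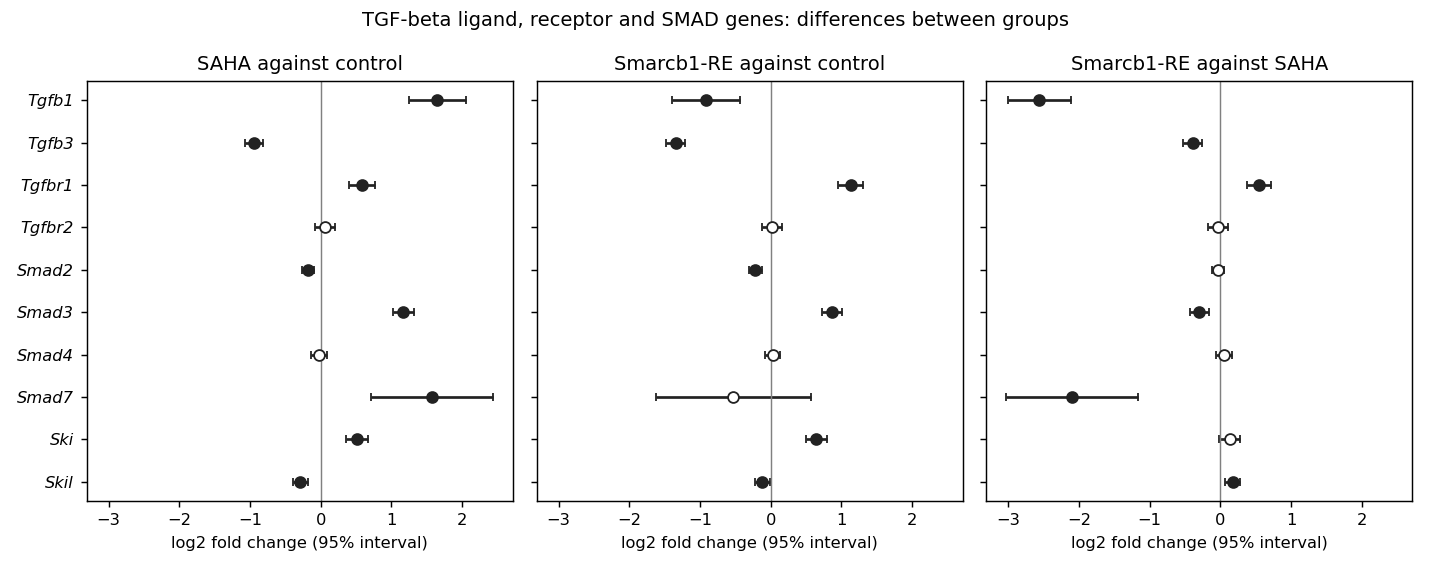
Log2 fold change of each gene (x axis) with its 95% interval in the 3 comparisons, from the edgeR fit to 9 libraries, with filled points for genes called at an adjusted p under 0.05 and open points for the rest. Tgfb1 and Smad7 lie above 1 in SAHA against control and below 0 in the other panels, and Tgfbr2 and Smad4 lie near 0 in all 3 panels.

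Among the ligands, Tgfb1 (ENSMUSG00000002603, chr7:25687002-25705077, plus strand, GRCm38) encodes TGF-beta 1, the main isoform of immune cells. It stood at 1.83, 2.24 and 1.65 CPM in the control libraries, 5.15, 6.19 and 6.63 under SAHA and 1.19, 0.753 and 1.08 in Smarcb1-RE. The 3 groups did not overlap, with SAHA highest and Smarcb1-RE lowest. Tgfb1 rose 3.14-fold in SAHA (log2 fold change 1.65, SE 0.19, adjusted p = 5.87e-06), more than 95.3% of all tested genes by absolute size. In Smarcb1-RE it fell, by a log2 fold change of -0.91 (SE 0.22, adjusted p = 0.00222), and between the treated groups it differed 5.91-fold (-2.56, SE 0.20, adjusted p = 1.36e-07). These levels rest on few counts, from 40 to 53 per control library, 119 to 154 per SAHA library and fewer in Smarcb1-RE.

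The window around the Tgfb1 start is shown because, of the 10 genes in the fit to all 9 libraries, this one differed most between the treated groups (chr7:25686752-25687051, plus strand, RefSeq, GRCm38.p6, from 250 bases before the start to 50 after it, the start being base 251). Capitals mark GC boxes (GGGCGG or CCGCCC, thus both strands) and the short SMAD element (CAGAC or GTCTG), and the same marking is used for every window below.
Tgfb1: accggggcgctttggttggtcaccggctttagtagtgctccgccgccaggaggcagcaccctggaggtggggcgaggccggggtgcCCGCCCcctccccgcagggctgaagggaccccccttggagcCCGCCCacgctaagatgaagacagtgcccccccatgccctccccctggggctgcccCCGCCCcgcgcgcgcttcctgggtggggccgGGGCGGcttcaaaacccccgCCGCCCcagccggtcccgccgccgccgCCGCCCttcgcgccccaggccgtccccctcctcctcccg
It holds 6 GC boxes, 30 CpG dinucleotides and no SMAD element. Of 32851 RefSeq windows of the same length, 35.7% hold at least 1 GC box and 2.71% hold at least 5, and 49.6% hold at least 1 SMAD element. Their median number of CpG dinucleotides is 7. A match describes letters in the window and is not evidence of a bound site.

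Tgfb3 (ENSMUSG00000021253, chr12:86056745-86079041, minus strand) encodes TGF-beta 3 and was the predominant ligand gene by level. Its CPM values were 40.4, 45.1 and 46.0 in control, 22.0, 22.4 and 23.8 under SAHA and 17.2, 17.7 and 17.0 in Smarcb1-RE. Every treated library lay below every control library, and the Smarcb1-RE libraries lay below those of SAHA. Tgfb3 fell by 0.95 on the log2 scale in SAHA (SE 0.06, adjusted p = 3.46e-08) and by 1.34 in Smarcb1-RE (SE 0.06, adjusted p = 7.51e-10), and was lower in Smarcb1-RE than in SAHA (-0.39, adjusted p = 0.00011). Its exons share 163 and 257 bases with Gm37804 and Gm48008 on the opposite strand, for which no value was used here, and how strand entered the authors' quantification is not given in the sources used here.

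The ligand genes thus moved apart in SAHA, and both fell in Smarcb1-RE. Per kb of merged exons, Tgfb1 made up 2.84 ± 0.449% of the summed Tgfb1 and Tgfb3 level in control, 15.0 ± 1.20% in SAHA and 3.77 ± 0.878% in Smarcb1-RE (SD, n = 3). The size of this share depends on the length used. Per kb of the longest coding transcript, Tgfb1 was at 0.876 in control, 2.75 under SAHA and 0.464 in Smarcb1-RE. Tgfb3 had the same values by both lengths (13.0, 6.72 and 5.11), so the Tgfb1 share is larger by the longest transcript. By merged exons the SAHA libraries (13.6 to 15.7%) lay above all others, and the control (2.34 to 3.22%) and Smarcb1-RE libraries (2.78 to 4.45%) overlapped. The third ligand gene, Tgfb2, reached at most 4 counts in any library and was not tested.

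**Figure D3:**
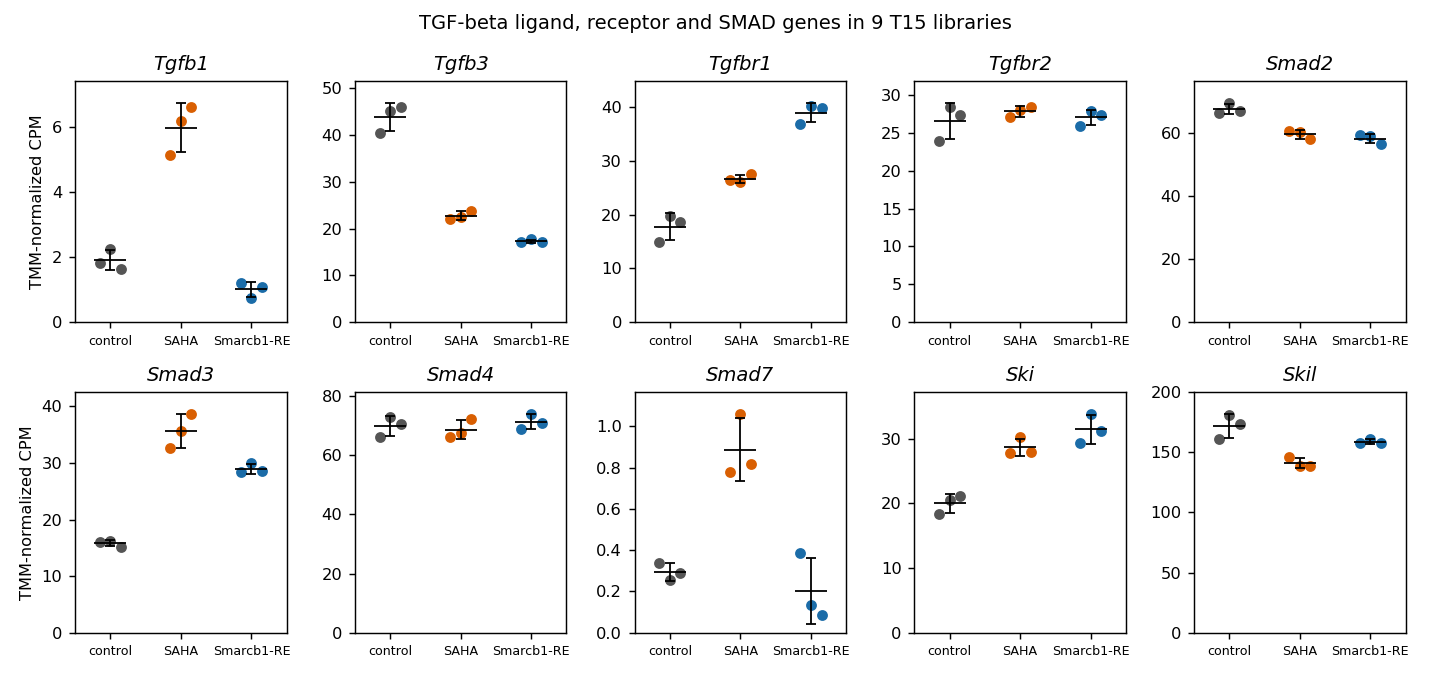
TMM-normalized CPM of each gene in the 9 libraries, with 1 panel a gene and the y axis starting at 0, where points are libraries and lines and bars are the mean and SD of 3 libraries. Tgfb3 is lower in both treated groups, Smad3, Tgfbr1 and Ski are higher in both, Tgfb1 and Smad7 are highest in SAHA, and Tgfbr2 and Smad4 overlap across groups.

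Of the receptors, Tgfbr1 (ENSMUSG00000007613, chr4:47353222-47414931, plus strand) encodes the type I kinase that phosphorylates Smad2 and Smad3. It measured 15.0, 19.8 and 18.7 CPM in control, 26.4, 26.0 and 27.5 under SAHA and 37.0, 40.2 and 40.0 in Smarcb1-RE. The groups were fully separated in the order control, SAHA, Smarcb1-RE. Tgfbr1 rose in SAHA (log2 fold change 0.58, SE 0.09, adjusted p = 5.56e-05) and rose 2.19-fold in Smarcb1-RE (1.13, SE 0.08, adjusted p = 5.32e-08). The difference between the treated groups was 0.55 (SE 0.08, adjusted p = 3.61e-05).

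Tgfbr1 lies on chromosome 4, where 674 tested protein-coding genes had an average log2 CPM of at least 1. Their median log2 fold change was 0.29 in Smarcb1-RE against control (quartiles -0.10 and 0.75), compared with -0.10 over 9661 such genes of the other autosomes. In SAHA the same medians were -0.09 and -0.06. In Smarcb1-RE against SAHA they were 0.38 and -0.04. Less the chromosome 4 median, the log2 fold change of Tgfbr1 in Smarcb1-RE was 0.84 against control and 0.17 against SAHA. The part of this chromosome-wide shift in the Tgfbr1 value was not tested.

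Tgfbr2 (ENSMUSG00000032440, chr9:116084293-116175360, minus strand) encodes the type II receptor that binds the ligand first. Its values were 23.9, 28.4 and 27.4 CPM in control, 27.0, 28.1 and 28.3 under SAHA and 25.9, 27.9 and 27.3 in Smarcb1-RE. All 3 groups overlapped. The log2 fold change was 0.07 in SAHA (95% interval -0.08 to 0.21, adjusted p = 0.386) and 0.03 in Smarcb1-RE (-0.12 to 0.17, adjusted p = 0.722), and -0.04 between the treated groups (-0.18 to 0.10). In each of the 3 comparisons the upper bound for Tgfbr2 lay below the lower bound for Tgfbr1.

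Within each library, the per-length ratio of Tgfbr1 to Tgfbr2 was 0.838 ± 0.0455 in control, 1.20 ± 0.0341 under SAHA and 1.81 ± 0.0227 in Smarcb1-RE. A ratio within a library does not depend on the scaling between libraries, and no library of a group reached the range of another (control ended at 0.873, SAHA began at 1.16 and Smarcb1-RE at 1.79). This is a description without a test of its own.

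The start windows of both receptor genes are shown side by side because the genes responded differently (Tgfbr1 chr4:47352972-47353271, plus strand; Tgfbr2 chr9:116175314-116175613, minus strand).
Tgfbr1: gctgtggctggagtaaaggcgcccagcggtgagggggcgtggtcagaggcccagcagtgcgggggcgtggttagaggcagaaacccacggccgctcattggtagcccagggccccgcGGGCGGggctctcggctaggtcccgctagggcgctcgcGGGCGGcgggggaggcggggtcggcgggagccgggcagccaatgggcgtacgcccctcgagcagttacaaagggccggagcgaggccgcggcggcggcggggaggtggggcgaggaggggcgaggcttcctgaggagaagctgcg
Tgfbr2: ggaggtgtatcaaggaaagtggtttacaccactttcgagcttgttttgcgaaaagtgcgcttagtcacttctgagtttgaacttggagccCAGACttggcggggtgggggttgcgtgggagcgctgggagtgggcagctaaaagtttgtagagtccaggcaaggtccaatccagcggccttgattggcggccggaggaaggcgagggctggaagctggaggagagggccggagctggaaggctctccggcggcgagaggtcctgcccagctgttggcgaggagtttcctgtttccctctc
The Tgfbr1 window holds 2 GC boxes, 34 CpG dinucleotides and no SMAD element. The Tgfbr2 window holds no GC box, 15 CpG dinucleotides and 1 SMAD element. RefSeq gives a second Tgfbr1 start, whose window has no GC box, 1 SMAD element and 3 CpG dinucleotides and is not printed. At least 2 GC boxes were found in 19.5% of all windows, whose median was 7 CpG dinucleotides.

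The genes whose pattern over the 9 libraries was most like that of Tgfbr1, by root mean square difference of centred log2 CPM among 11318 genes, were Med12 (0.0722), Mef2c (0.0736) and Cnnm2 (0.0741). For Tgfbr2 they were Numb (0.0319), Tubgcp6 (0.0381) and Ube4b (0.0420). These are nearest neighbours among many genes and carry no test.

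Both receptor-regulated SMAD genes were called in both comparisons with control, in opposite directions. Smad2 (ENSMUSG00000024563, chr18:76241580-76310963, plus strand) was at 66.3, 69.4 and 66.8 CPM in control, 60.5, 60.2 and 57.9 under SAHA and 59.1, 58.8 and 56.4 in Smarcb1-RE. All treated libraries lay below all control libraries, by a small margin. Smad2 fell by 0.18 on the log2 scale in SAHA (SE 0.04, adjusted p = 0.00172) and by 0.22 in Smarcb1-RE (SE 0.04, adjusted p = 0.00035). The latter was not called with library totals as the scaling. The difference between the treated groups was -0.03 (95% interval -0.13 to 0.06, adjusted p = 0.461), and its sign depended on the scaling.

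Smad3 (ENSMUSG00000032402, chr9:63646767-63757994, minus strand) was at 16.0, 16.3 and 15.2 CPM in control, 32.7, 35.6 and 38.7 under SAHA and 28.4, 29.9 and 28.5 in Smarcb1-RE. The groups did not overlap, with SAHA highest. It rose 2.25-fold in SAHA (log2 fold change 1.17, SE 0.07, adjusted p = 1.74e-08), more than 89.8% of tested genes by absolute size, and 1.83-fold in Smarcb1-RE (0.87, SE 0.07, adjusted p = 9.98e-08). Smad3 was lower in Smarcb1-RE than in SAHA (-0.30, SE 0.06, adjusted p = 0.000791). The per-length ratio of Smad3 to Smad2 was 0.372 ± 0.0111 in control, 0.950 ± 0.102 under SAHA and 0.790 ± 0.0246 in Smarcb1-RE, so that the pair, unequal in control, was near parity in SAHA.

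The Smad3 window is printed because Smad3 rose in both comparisons (chr9:63757945-63758244, minus strand).
Smad3: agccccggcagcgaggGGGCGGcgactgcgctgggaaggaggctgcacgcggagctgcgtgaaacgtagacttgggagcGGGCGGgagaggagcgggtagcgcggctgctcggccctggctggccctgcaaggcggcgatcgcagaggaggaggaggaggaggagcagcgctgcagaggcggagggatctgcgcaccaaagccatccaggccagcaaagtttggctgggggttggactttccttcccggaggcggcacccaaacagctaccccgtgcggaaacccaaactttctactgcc
It holds 2 GC boxes, 25 CpG dinucleotides and no SMAD element.

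Smad4 (ENSMUSG00000024515, chr18:73639009-73703780, minus strand), the common partner of the receptor-regulated SMADs, was at 66.1, 72.9 and 70.5 CPM in control, 66.1, 67.4 and 72.3 under SAHA and 68.9, 74.0 and 70.7 in Smarcb1-RE. The 3 groups overlapped. Its log2 fold change was -0.03 in SAHA (95% interval -0.14 to 0.09, adjusted p = 0.679) and 0.03 in Smarcb1-RE (-0.08 to 0.14, adjusted p = 0.634). Between the treated groups it was 0.05 (-0.06 to 0.16, adjusted p = 0.363).

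Smad7 (ENSMUSG00000025880, chr18:75367529-75395935, plus strand), the inhibitory SMAD and a known transcriptional target of the pathway, was near the floor. Its counts were 8, 6 and 7 in control, 18, 24 and 19 under SAHA and 9, 3 and 2 in Smarcb1-RE, which averaged 0.294, 0.886 and 0.201 CPM. Every SAHA library exceeded every other library, which follows in part from the filter, since only the SAHA libraries reached its minimum, and 2 of the Smarcb1-RE libraries were at or under 3 counts. The values for SAHA are therefore a description. Smad7 was 2.98-fold higher in SAHA than in control (log2 fold change 1.57, SE 0.40) and was lower in Smarcb1-RE than in SAHA (-2.10, SE 0.43). In Smarcb1-RE against control it was not called (-0.53, 95% interval -1.63 to 0.57, adjusted p = 0.353), and without Smarcb1-RE replicate 1 it was called lower (-1.40, adjusted p = 0.039). Without that library the difference from SAHA was -2.97.

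The SMAD co-repressors also moved in opposite directions. Ski (ENSMUSG00000029050, chr4:155154075-155222592, minus strand) was at 18.4, 20.6 and 21.1 CPM in control, 27.8, 30.2 and 28.0 under SAHA and 29.4, 33.9 and 31.1 in Smarcb1-RE. Both treated groups lay above control and overlapped each other. Ski rose 1.43-fold in SAHA (log2 fold change 0.52, SE 0.07, adjusted p = 3.34e-05) and 1.57-fold in Smarcb1-RE (0.65, SE 0.07, adjusted p = 2.4e-06). Ski also lies on chromosome 4, and less the median of that chromosome its value in Smarcb1-RE was 0.36 against control and, from 0.13, -0.24 against SAHA. Its start window, counted but not printed, holds 6 GC boxes, 59 CpG dinucleotides and no SMAD element.

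Skil (ENSMUSG00000027660, chr3:31095058-31122577, plus strand), which encodes SnoN, was at 161, 181 and 174 CPM in control, 146, 139 and 138 under SAHA and 158, 161 and 157 in Smarcb1-RE. The SAHA libraries lay below all others, whereas control and Smarcb1-RE overlapped. Skil fell by 0.29 on the log2 scale in SAHA (SE 0.05, adjusted p = 0.000125), and Smarcb1-RE lay above SAHA by 0.17 (SE 0.05, adjusted p = 0.00475). In Smarcb1-RE against control the call was marginal (-0.11, SE 0.05, adjusted p = 0.0361). It was lost without control replicate 2 (adjusted p = 0.111), control replicate 3 (0.0607) or any of the Smarcb1-RE replicates (0.0522 to 0.092), and the sign turned with library totals as the scaling (0.04). Over all alternatives the adjusted p ran from 0.000875, without control replicate 1, to 0.426. The per-length ratio of Skil to Ski was 4.93 ± 0.189 in control, 2.83 ± 0.192 under SAHA and 2.91 ± 0.175 in Smarcb1-RE, with the treated groups overlapping each other and both below control.

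**Figure D4:**
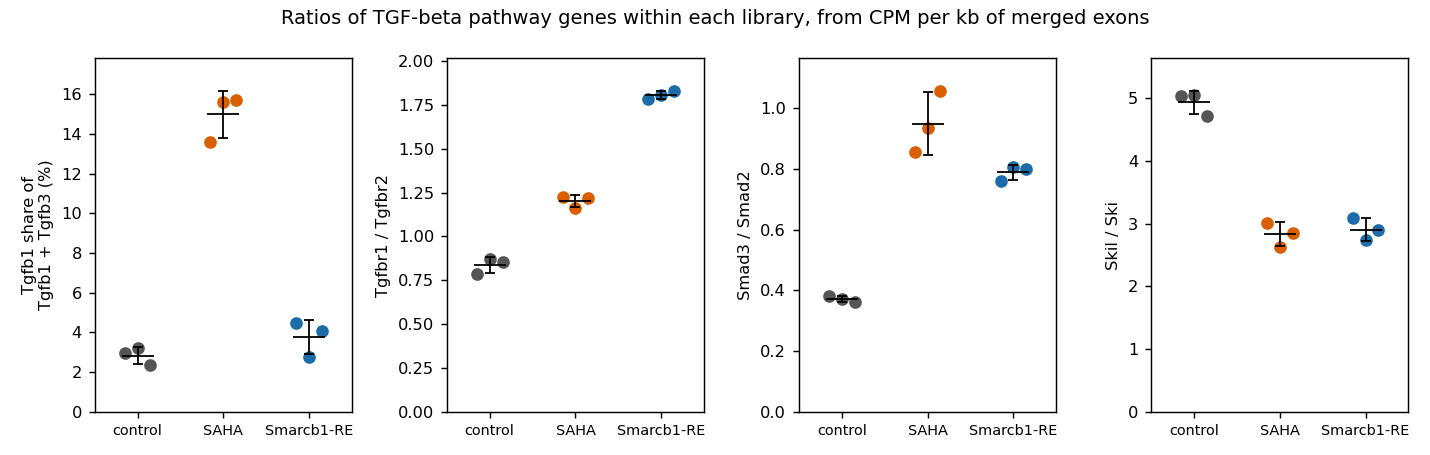
Ratios within each library from CPM per kb of merged exons, for the share of Tgfb1 in the ligand sum (%), Tgfbr1 to Tgfbr2, Smad3 to Smad2 and Skil to Ski, where points are libraries, lines and bars are the mean and SD of 3 libraries, and each y axis starts at 0. The receptor ratio separates all 3 groups at 0.838, 1.20 and 1.81, and the Tgfb1 share stands out in SAHA at 15.0%.

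Beyond these genes, 57 others of the pathway were listed, from latency proteins to known targets, and 41 were tested. In SAHA against control 22 were called higher and 9 lower, and in Smarcb1-RE against control 18 and 15, beside the shares of all genes given above. Their median log2 fold change was 0.15 under SAHA and 0.09 in Smarcb1-RE. Between the treated groups 14 were higher and 20 lower in Smarcb1-RE, beside 37.7% and 36.8% of all tested genes. Without control replicate 1 these counts were 20 and 9, 17 and 16, and 14 and 21. In a bulk sample fewer cells of a type and less RNA per cell cannot be told apart, here or for the genes above.

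Among ligand and latency genes (6 tested of 12), 4 were called higher (32.6% of all tested genes) and none lower (34.3%) in SAHA. In Smarcb1-RE 3 were higher (39.2%) and 2 lower (38.6%). With library totals as the scaling 1 was lower, beside 4141 of all 13697 tested genes. Ltbp4, a latent TGF-beta binding protein, had 11.6 to 12.9 CPM in control, 26.4 to 33.1 under SAHA and 26.5 to 28.2 in Smarcb1-RE, and rose in both (log2 fold change 1.31, SE 0.09, adjusted p = 5.35e-08, and 1.14, SE 0.09, adjusted p = 8.64e-08). Ltbp1 rose 3.73-fold in Smarcb1-RE (1.90, SE 0.22, adjusted p = 3.59e-06), from 20 to 30 counts per library in control to 79 to 106. Its smaller rise in SAHA (0.61, adjusted p = 0.0328) was lost without control replicate 1 or 2 or without SAHA replicate 2 or 3 (adjusted p from 0.0502 to 0.116). That rise was also lost with DESeq2 (adjusted p = 0.0618) and without a filter on low counts (0.0540). Furin, the protease that cleaves the TGF-beta precursor, rose in SAHA (0.80, SE 0.09, adjusted p = 3.32e-06) and was not called in Smarcb1-RE (-0.09, adjusted p = 0.347). The difference between the treated groups was itself called for Furin (-0.90, adjusted p = 8.06e-07).

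Of the receptor and co-receptor genes (9 tested of 12), 7 were called higher (32.6% of all tested genes) and none lower (34.3%) in SAHA. Leaving out 1 library at a time gave 6 to 7 higher. The smallest of these rises (log2 fold change 0.22) kept its call in 10 of 18 fits, the main fit and its alternatives, and lost it with DESeq2. In Smarcb1-RE 4 of the 9 were higher (39.2%) and 3 lower (38.6%). With library totals as the scaling these were 5 and 2, beside 6476 and 4141 of all 13697 tested genes. Acvr1c, which encodes the type I receptor ALK7, had 5.66 to 6.99 CPM in control, 19.1 to 20.8 under SAHA and 8.32 to 10.3 in Smarcb1-RE. It rose 3.22-fold in SAHA (log2 fold change 1.69, SE 0.10, adjusted p = 2.43e-08) and 1.53-fold in Smarcb1-RE (0.62, SE 0.11, adjusted p = 0.000171). The activin type II receptor gene Acvr2b rose in both (1.24 and 1.25, both SE 0.20, adjusted p = 0.000131 and 8.96e-05), and the interval of the difference between the treated groups ran from -0.40 to 0.41. Acvr2a rose in Smarcb1-RE (1.05, SE 0.11, adjusted p = 1.44e-06) and was not called in SAHA (-0.07, adjusted p = 0.591), and the treated groups differed (1.12, adjusted p = 9.08e-07). These receptors signal for activins and related ligands through Smad2 and Smad3.

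Of the SMADs of the BMP branch, Smad5 and Smad9 moved in opposite directions under the treatments, unlike the SMAD anchor, and the fall of Smad1 in SAHA was marginal. Of the 4 tested genes of this group, 1 was called higher (32.6% of all tested genes) and 3 lower (34.3%) in SAHA. In Smarcb1-RE all 4 were called higher, as were 39.2% of all tested genes. Smad5 fell by 0.54 on the log2 scale in SAHA (SE 0.06, adjusted p = 5.68e-06) and rose by 0.33 in Smarcb1-RE (SE 0.06, adjusted p = 0.000166). Its libraries ran from 27.4 to 27.9 CPM in control and 33.6 to 35.7 in Smarcb1-RE, and all 3 SAHA libraries were at or below 20.8. Smad9 did likewise (-0.50, adjusted p = 0.000155, and 0.70, adjusted p = 2.4e-06), with a difference of 1.21 between the treated groups (SE 0.08, adjusted p = 2.44e-08). Smad1 rose in Smarcb1-RE (0.41, adjusted p = 0.000669), and its fall in SAHA (-0.22, adjusted p = 0.041) was lost without control replicate 2, SAHA replicate 1 or 3, or any of the Smarcb1-RE replicates (adjusted p from 0.0505 to 0.192). That fall was also lost with DESeq2 (adjusted p = 0.0717), in the pairwise fit (0.0795) and with at least 10 counts in every library (0.0663). The SAHA and control libraries of Smad1 overlapped. Zfyve9, which encodes the anchor SARA that presents Smad2 and Smad3 to the receptor, rose in both (0.53, adjusted p = 7.91e-06, and 0.77, adjusted p = 1.13e-07). Smad6, the inhibitory SMAD of the BMP branch, had 2, 5 and 0 counts in control, 9, 15 and 12 under SAHA and 6, 4 and 8 in Smarcb1-RE and was not tested.

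Ubiquitin ligases, deubiquitinases and the phosphatase (8 of 8 tested) split into 2 higher (32.6% of all tested genes) and 3 lower (34.3%) in SAHA. Leaving out 1 library at a time gave 1 to 2 higher and 3 to 4 lower. The smaller of the rises (log2 fold change 0.14) kept its call in 12 of the 18 fits. In Smarcb1-RE 1 of the 8 was higher (39.2%) and 3 lower (38.6%). With library totals as the scaling 4 were higher, beside 6476 of all 13697 tested genes. Nedd4l, a ligase that marks activated Smad2 and Smad3 for degradation, had 17, 21 and 12 counts in control, 11, 10 and 10 under SAHA and 112, 111 and 112 in Smarcb1-RE. It rose 6.87-fold in Smarcb1-RE (log2 fold change 2.78, SE 0.21, adjusted p = 8.31e-08). Its value in SAHA was -0.63 (adjusted p = 0.0723), and without control replicate 3 it was called lower (-0.83, adjusted p = 0.0268). Smurf1, a ligase that Smad7 recruits to the receptor, fell in SAHA (-0.60, SE 0.07, adjusted p = 1.16e-05) and was not called in Smarcb1-RE (-0.09, adjusted p = 0.28; called lower without control replicate 1, -0.16, adjusted p = 0.0263). Its paralog Smurf2 fell in Smarcb1-RE (-0.54, SE 0.07, adjusted p = 1.99e-05) and was not called in SAHA (0.08, adjusted p = 0.309).

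Of the co-repressors, co-activators and inhibitors (6 tested of 8), 3 rose and 3 fell in each comparison with control. Leaving out 1 library at a time gave 2 to 3 higher and 3 lower in each. The smallest rise in Smarcb1-RE (log2 fold change 0.25) kept its call in 11 of the 18 fits. Over all tested genes 32.6% were called higher and 34.3% lower in SAHA, and 39.2% and 38.6% in Smarcb1-RE. Fkbp1a encodes FKBP12, which holds the type I receptor inactive. Its libraries ran from 207 to 224 CPM in control, 158 to 165 under SAHA and 87.2 to 93.2 in Smarcb1-RE, so that it fell in steps without overlap (-0.42, SE 0.04, adjusted p = 1.8e-06, and -1.26, SE 0.04, adjusted p = 7.72e-11). The homeodomain co-repressor Tgif2 rose in both (0.92, adjusted p = 1.33e-06, and 1.04, adjusted p = 2.01e-07). Its paralog Tgif1 rose in SAHA (0.43, adjusted p = 3.36e-05) and fell in Smarcb1-RE (-0.97, adjusted p = 2.25e-08).

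Of 12 known targets 8 were tested. In SAHA 5 were called higher (32.6% of all tested genes) and none lower (34.3%). In Smarcb1-RE 3 were higher (39.2%) and 4 lower (38.6%). With library totals as the scaling these were 4 and 3, beside 6476 and 4141 of all 13697 tested genes. Cdkn1a, which encodes the cyclin-dependent kinase inhibitor p21, had 1.96, 2.83 and 2.67 CPM in control, 4.24, 3.80 and 3.70 under SAHA and 7.85, 8.32 and 7.63 in Smarcb1-RE. It rose in both (log2 fold change 0.65, SE 0.15, adjusted p = 0.00184, and 1.67, SE 0.14, adjusted p = 2.2e-07). Cdkn2b, which encodes p15, rose in SAHA (1.23, SE 0.25, adjusted p = 0.000751), and its rise in Smarcb1-RE (0.72, adjusted p = 0.0213) was lost without control replicate 1 or 2 or without Smarcb1-RE replicate 1 or 3 (adjusted p from 0.0543 to 0.0644). Id1, an inhibitor of bHLH transcription factors and mainly a target of the BMP branch, had 28, 34 and 38 counts in control, 55, 65 and 69 under SAHA and 10, 4 and 6 in Smarcb1-RE. It rose in SAHA (0.97, SE 0.23, adjusted p = 0.00252) and fell in Smarcb1-RE (-2.25, SE 0.31, adjusted p = 2.02e-05), and the treated groups differed 9.35-fold.

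**Figure D5:**
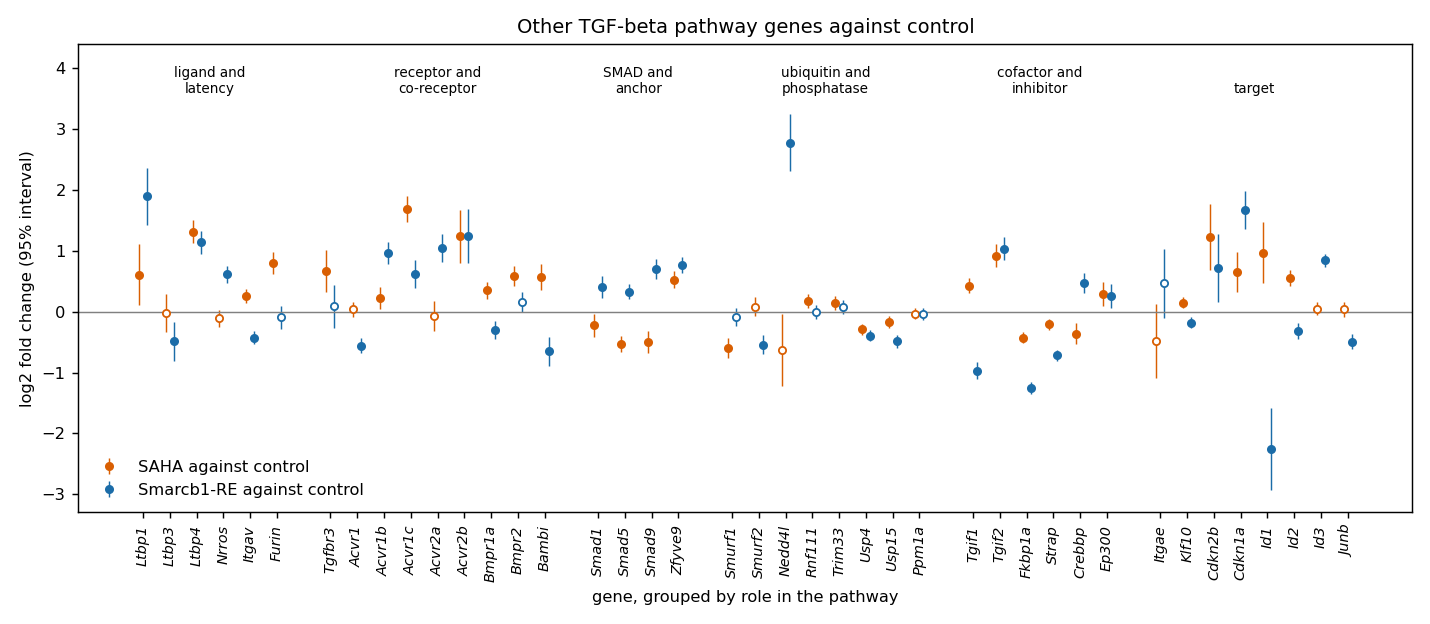
Log2 fold change against control with 95% interval (y axis) of the 41 other tested pathway genes, grouped by role, for SAHA (orange) and Smarcb1-RE (blue), with filled points for genes called at an adjusted p under 0.05. Nedd4l (2.78) and Id1 (-2.25) have the values farthest from 0, both in Smarcb1-RE.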

How the data were processed

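RNA-seq was measured in 9 libraries. The authors deposited estimated counts per Ensembl gene, neither normalized nor pooled, of which 52.4% of the values above 0 were not whole. The submitters' processing notes name FastQC 0.11.8, MultiQC 1.7, Salmon 0.14.1, DESeq2 1.22.2 and GRCm38, without roles, and libraries were directional and single-end. The annotation is not given in the sources used here, and names, coordinates and exon lengths came from GENCODE M21, which held 99.3% of the identifiers.

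Expected counts as deposited were rounded and fitted once over all 9 libraries with edgeR 4.0.16 in R 4.3.3 (filterByExpr with a minimum count of 10, TMM, glmQLFit, glmQLFTest, Benjamini-Hochberg adjustment over 13697 genes). Genes were called at an adjusted p under 0.05. SE is the absolute log2 fold change over the square root of F. Alternatives were DESeq2 1.42.0, median-ratio factors, library totals only, other filters, pairwise fits, a replicate block, unrounded counts, stricter thresholds and leaving out each library. The calculations were tested on simulated data. P-values measure the spread between cultures of 1 cell line.

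The genes, the pathway list and the marker lists were chosen with earlier results of these data known. In each role group the named genes are up to 3 with the largest absolute log2 fold change against control, plus Tgfb2, Smad1 and Smad6. Start windows came from RefSeq (GRCm38.p6), and windows of 5 of the 7 genes looked for were used here.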

Additional observations from a re-analysis of the deposited data

How the results depend on the processing

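Over 506 combinations of a gene, a comparison and an alternative, 482 kept direction and side of the threshold, 9 lost the call, 5 gained it and 10 changed sign. The sign changes were of values near 0. Leaving out 1 library at a time, Tgfbr2 in SAHA ranged from -0.0063 (without control replicate 1) to 0.115, and Smad4 from -0.0664 to 0.0040 (without control replicate 2). In Smarcb1-RE against control Tgfbr2 ranged from -0.0507 (without control replicate 1) to 0.0624, and Smad4 from -0.0167 (without control replicate 1) to 0.0448, and was also below 0 without Smarcb1-RE replicate 2 (-0.0034). With at least 10 counts in every library, Smad4 in SAHA was 0.0082, and without a filter on low counts Tgfbr2 in Smarcb1-RE was -0.0012. With library totals as the scaling, Skil was 0.0436 in Smarcb1-RE against control, and Tgfbr2 and Smad2 were 0.119 and 0.124 in Smarcb1-RE against SAHA. The same scaling gave 5 higher and 2 lower of the 10 genes in Smarcb1-RE against control and 5 higher and 3 lower in Smarcb1-RE against SAHA. Of all genes it gave 6476 higher and 4141 lower in the former, against 5371 and 5282, and 6441 and 3924 in the latter, against 5170 and 5042.

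When calls also had to reach an absolute log2 fold change of 1, the 10 genes gave 3 higher and 0 lower in SAHA, 1 and 1 in Smarcb1-RE, and 0 and 2 in Smarcb1-RE against SAHA. Smad7, which passed the filter only through SAHA, is among the 3 and the 2. The 41 other tested pathway genes gave 4 and 0, 7 and 2, and 5 and 4. Of all tested genes 9.85% and 2.35%, 16.9% and 6.78%, and 11.5% and 8.21% were called at this cutoff, in the same order. Less the chromosome 4 median, Tgfbr1 was 0.84 and Ski 0.36 in Smarcb1-RE against control, and 0.17 and -0.24 in Smarcb1-RE against SAHA, the latter chosen after seeing the data. Leaving out 1 library at a time gave 3 to 4 of the 10 genes lower in Smarcb1-RE against control, the 4 without Smarcb1-RE replicate 1 lacking Skil and including Smad7, and the other counts of the 10 genes were as reported, while the other pathway genes ranged from 18 to 23 higher and 8 to 10 lower in SAHA, 16 to 19 and 15 to 16 in Smarcb1-RE, and 14 and 18 to 22 in Smarcb1-RE against SAHA. Smad7 had no value with at least 10 counts in every library, nor in Smarcb1-RE against control in the pairwise fit. The cause of these shifts was not tested.

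Replicate numbers recur in each group but did not pair the libraries: deviations of libraries with the same number correlated between -0.07 and 0.04 across genes, and 3 of 9 libraries correlated best with their own number. With the replicate number as a block, the call of Skil in Smarcb1-RE against control was lost (-0.11, adjusted p = 0.0515) and no other call of the 10 genes changed. With at least 10 counts in every library that call was lost as well (adjusted p = 0.245). Depth limits Smad7 and Tgfb1 most, at 2 to 24 and 17 to 154 counts per library.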
